A study of Mus musculus with 6 samples.

Results

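The genes described here encode proteins of the secondary (specific) and tertiary (gelatinase) granules of neutrophils, in the bone marrow of mice in which human *CDX2* was switched on in the blood lineage. They are *Ltf*, *Camp*, *Ngp*, *Lcn2*, *Mmp8*, *Mmp9*, *Chil3*, *Cd177* and *Hp*, a list of 9 symbols taken as given, and each symbol matched 1 of the 39179 mouse genes in the files. Each of the 3 *MxCDX2* mice had 2 alleles: *RsCDX2*, which places human *CDX2* at the *Rosa26* locus where it stays silent until Cre removes a stop cassette, and *Mx1Cre*, which supplies the Cre. The controls had at most 1 of these alleles. Control 1 carried *RsCDX2* alone, control 2 carried *Mx1Cre* alone and control 3 was wild type, so that no control genotype had a second mouse. All 6 were littermates. At 3 months of age every one of them, controls included, was given poly(I:C) into the peritoneum 3 times at 10 µg per g of body weight, and marrow RNA was taken 6 weeks later. The *Mx1* promoter answers to interferon in many cell types, so the recombined cells were not defined by lineage, and the RNA came from unsorted marrow.

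A neutrophil builds its granules in order as it matures. Myeloblasts and promyelocytes fill primary (azurophil) granules with myeloperoxidase and serine proteases, myelocytes and metamyelocytes fill specific granules with lactoferrin and antimicrobial proteins, and band cells fill gelatinase granules before the mature cell leaves the marrow. The transcription factor C/EBPε is known to be needed for the secondary granule genes, and the messages of each granule class are made mainly during the stage that fills it.

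Between 38646101 and 49899650 reads per mouse were counted on genes. The deposited values were raw counts, and levels are given here as CPM, the count scaled to a common library size of 1000000 reads after TMM normalization. Of the 39179 genes, 15980 had enough reads to be tested with edgeR's quasi-likelihood test, all 9 granule genes among them. A gene was called when its absolute log2 fold change was above 1 and its Benjamini-Hochberg adjusted p-value, over all tested genes, was below 0.05. Mouse *Cdx2*, the row on which reads of the human sequence could land, had 4, 0 and 0 counts in control mice 1 to 3 and 152, 155 and 183 counts in the *MxCDX2* mice. The wild-type mouse stood apart from the other controls: its 6 megakaryocyte markers summed to 6428 CPM against 763 and 557 CPM, and its 9 primary granule genes summed to 1315 CPM against 4810 and 3664 CPM. Where a call below changed without this mouse, the value or the count without it is given as well.

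Of the 9 genes, 5 were called lower in the *MxCDX2* marrow (*Chil3*, *Mmp8*, *Ltf*, *Lcn2* and *Mmp9*) and 0 were called higher. Over all tested genes, 9.03% were called lower and 4.59% were called higher. In 7 of the 9 genes every *MxCDX2* mouse lay below every control mouse, a pattern that 20.7% of all tested genes had. None of the 9 had the opposite separation, which 21.4% of the tested genes had. The median log2 fold change was -1.51 over the 9 genes and 0.0021 over all tested genes. These reads come from whole marrow, in which fewer neutrophils of a stage and less RNA per cell cannot be told apart. The smallest two-sided p that an exact permutation test of 3 mice against 3 can give is 0.1, so single values were tested only within the fit over all genes.

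**Figure D1:**
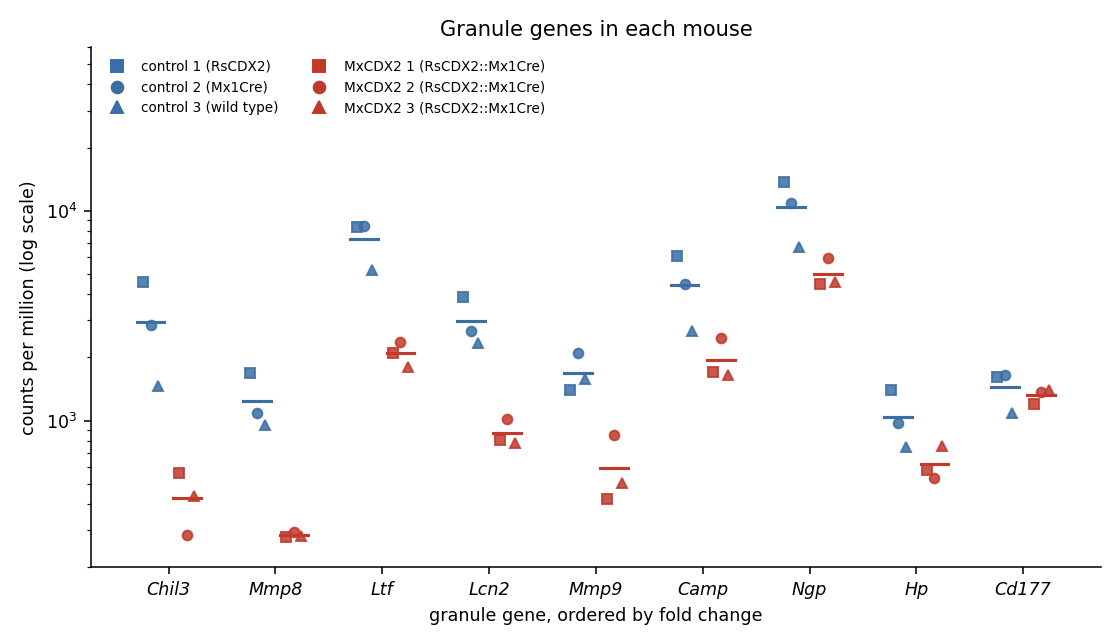
CPM (log axis) of the 9 granule genes in each of the 6 mice, with blue symbols for the control mice, red symbols for the *MxCDX2* mice, the symbol shape for the mouse, and a bar for each group's mean. The groups are apart for 7 genes, and they overlap for *Hp* and *Cd177*.

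Promoter sequence is shown for the 3 genes with the largest falls (*Chil3*, *Mmp8* and *Ltf*), for *Cd177*, which had the smallest difference, and for *Ngp*, the member with a printed match to the CDX letters. Each run is the stretch before the transcript start in RefSeq's table for GRCm38.p6, read 5′ to 3′ on the gene's strand and shortened where an annotated exon begins. Capitals mark matches, on either strand, to short motifs of C/EBP proteins, PU.1 and CDX proteins and to the TATA box, which are spelled out after the sequences.
*Chil3*, chr3:106167565-106167814, minus strand: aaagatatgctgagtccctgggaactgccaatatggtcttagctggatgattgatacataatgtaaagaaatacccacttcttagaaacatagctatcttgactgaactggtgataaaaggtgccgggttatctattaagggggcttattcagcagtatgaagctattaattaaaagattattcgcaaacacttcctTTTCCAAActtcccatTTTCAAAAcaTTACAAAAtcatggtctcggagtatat
*Mmp8*, chr9:7558179-7558428, plus strand: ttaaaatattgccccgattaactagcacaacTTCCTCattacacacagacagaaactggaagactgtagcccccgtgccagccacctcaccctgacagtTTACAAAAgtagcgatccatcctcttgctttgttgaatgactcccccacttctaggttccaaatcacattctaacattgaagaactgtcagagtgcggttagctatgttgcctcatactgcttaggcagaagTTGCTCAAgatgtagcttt
*Ltf*, chr9:111019042-111019270, plus strand: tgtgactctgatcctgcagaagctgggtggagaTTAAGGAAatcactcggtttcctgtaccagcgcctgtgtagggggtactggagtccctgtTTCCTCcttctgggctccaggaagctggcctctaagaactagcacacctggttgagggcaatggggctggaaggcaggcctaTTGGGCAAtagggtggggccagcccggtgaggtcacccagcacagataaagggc
*Ngp*, chr9:110419558-110419746, plus strand: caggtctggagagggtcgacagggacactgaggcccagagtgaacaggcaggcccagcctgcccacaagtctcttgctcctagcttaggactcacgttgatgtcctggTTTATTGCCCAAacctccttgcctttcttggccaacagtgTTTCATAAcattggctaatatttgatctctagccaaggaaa
*Cd177*, chr7:24760312-24760561, minus strand: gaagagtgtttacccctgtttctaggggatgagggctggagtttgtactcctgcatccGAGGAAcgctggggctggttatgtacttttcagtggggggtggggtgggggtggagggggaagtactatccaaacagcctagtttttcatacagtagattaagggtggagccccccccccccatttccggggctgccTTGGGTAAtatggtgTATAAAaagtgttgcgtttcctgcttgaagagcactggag

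RefSeq's table held 7 of the 9 genes, all but *Mmp9* and *Hp*. The C/EBP motif searched was TTNNGNAA, and over the whole window of 250 bases it was present in 6 of the 7 genes (all but *Camp*) and in 36.8% of the 32851 promoters in the table. For PU.1 the motif was GAGGAA, present in 4 of 7 (*Ltf*, *Lcn2*, *Mmp8* and *Cd177*) and in 23.3% of all promoters. For CDX proteins it was TTTATNG, present in 2 of 7 (*Ngp* and *Lcn2*) and in 9.81% of all promoters. These counts take in bases inside the annotated genes. Of the *Lcn2* window 0 bases lay upstream of all its annotated exons. Its C/EBP, PU.1 and CDX matches lie before the RefSeq transcript start but inside the gene as annotated by GENCODE. For *Camp* 89 bases lay upstream. In *Ngp* the CDX match TTTATTG runs into the C/EBP match TTGCCCAA, and the pair appears above as 1 capital run. *Cd177* alone among the 7 held TATAAA, which was in 12.4% of all promoters. A match describes letters only and says nothing about binding.

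The antimicrobial and iron-binding proteins of the specific granule come first. *Ltf* (ENSMUSG00000032496, chr9:111019271-111042767, plus strand, GRCm38) encodes lactoferrin, which binds iron and is the classical marker of the specific granule. Its level was 8389, 8428 and 5242 CPM in control mice 1, 2 and 3, and 2099, 2369 and 1804 CPM in *MxCDX2* mice 1, 2 and 3. The groups were apart, with the lowest control 2.21 times above the highest *MxCDX2* mouse. The log2 fold change was -1.81 ± 0.29 (SE, n = 3 per group, adjusted p = 0.00749, edgeR), or 28.4% of the control level. Leaving out *MxCDX2* mouse 3 ended this call, at a log2 fold change of -1.71 and an edgeR adjusted p of 0.0589.

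*Lcn2* (ENSMUSG00000026822, chr2:32384633-32388252, minus strand) encodes lipocalin 2, which captures bacterial siderophores. Its level was 3899, 2679 and 2341 CPM in the control mice and 804, 1021 and 786 CPM in the *MxCDX2* mice. As for *Ltf*, the RsCDX2 and Mx1Cre controls were above the wild-type mouse and *MxCDX2* mouse 2 was the highest of its group. The difference, as a log2 fold change, was -1.77 ± 0.26 (SE, n = 3 per group, adjusted p = 0.00541, edgeR), and the call held in all 15 alternative fits.

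*Camp* and *Ngp* both lie on chromosome 9, and both encode proteins with a cathelin-like domain. *Camp* (ENSMUSG00000038357, chr9:109847379-109849617, minus strand) is the precursor of the antimicrobial peptide CRAMP, and it was at 6102, 4466 and 2658 CPM in the control mice and at 1700, 2472 and 1648 CPM in the *MxCDX2* mice. *Ngp* (ENSMUSG00000032484, chr9:110419747-110423012, plus strand) encodes neutrophilic granule protein, and it was at 13753, 10924 and 6715 CPM in the control mice and at 4485, 5975 and 4553 CPM in the *MxCDX2* mice. For both genes the groups were apart by a narrow gap, with the wild-type mouse low among the controls and *MxCDX2* mouse 2 high in its group. The lowest control was 1.08 times the highest *MxCDX2* mouse for *Camp* and 1.12 times for *Ngp*. Neither passed the test, with a log2 fold change of -1.18 ± 0.36 for *Camp* (SE, n = 3 per group, adjusted p = 0.0572, edgeR) and of -1.06 ± 0.35 for *Ngp* (SE, n = 3 per group, adjusted p = 0.0762, edgeR). Without the wild-type mouse both were called, at -1.42 for *Camp* (adjusted p = 0.0141, edgeR) and -1.28 for *Ngp* (adjusted p = 0.0148, edgeR). DESeq2 and limma voom also called both on all 6 mice. Within each mouse *Ngp* exceeded *Camp* by nearly the same amount, with a log2 ratio of 1.17 to 1.34 in the control mice and 1.27 to 1.47 in the *MxCDX2* mice.

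*Hp* (ENSMUSG00000031722, chr8:109575128-109579172, minus strand) encodes haptoglobin, which binds free haemoglobin and is stored in specific granules as well as made by the liver. Its level was 1397, 970 and 748 CPM in the control mice and 581, 531 and 753 CPM in the *MxCDX2* mice. The groups overlapped, since *MxCDX2* mouse 3 lay just above the wild-type mouse. The log2 fold change of -0.74 ± 0.26 (SE, n = 3 per group, 95% interval -1.37 to -0.11, adjusted p = 0.0922, edgeR) did not pass the test. Leaving out the wild-type mouse gave -0.91, with an edgeR adjusted p of 0.0297 and still under the fold threshold.

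The matrix-degrading enzymes were both called lower. *Mmp8* (ENSMUSG00000005800, chr9:7558456-7568485, plus strand) encodes neutrophil collagenase, a specific granule enzyme. Its level was 1694, 1081 and 948 CPM in the control mice and 279.8, 295 and 283 CPM in the *MxCDX2* mice. The *MxCDX2* mice were nearly equal, with a coefficient of variation of 2.83%, and the lowest control was 3.21 times the highest of them, the widest gap of the 9 genes. This gave a log2 fold change of -2.12 ± 0.24 (SE, n = 3 per group, adjusted p = 0.00283, edgeR), a 4.34-fold lower level. *Mmp9* (ENSMUSG00000017737, chr2:164940780-164955850, plus strand) encodes gelatinase B, the enzyme that gives the gelatinase granule its name. Its level was 1405, 2092 and 1584 CPM in the control mice and 421, 855 and 504 CPM in the *MxCDX2* mice. It was the only one of the 9 whose lowest control was the RsCDX2 mouse, and *MxCDX2* mouse 2 was 2.03 times *MxCDX2* mouse 1. The log2 fold change was -1.51 ± 0.31 (SE, n = 3 per group, adjusted p = 0.0172, edgeR), and without *MxCDX2* mouse 3 it was -1.40 and no longer called (adjusted p = 0.0815, edgeR).

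*Chil3* (ENSMUSG00000040809, chr3:106147554-106167564, minus strand) encodes Ym1, a chitinase-like lectin of neutrophil granules that macrophages also make, and it had the largest fall of the list. Its level was 4559, 2866 and 1459 CPM in the control mice and 563, 285 and 438 CPM in the *MxCDX2* mice. It was also the most variable of the 9 among the controls, with the RsCDX2 mouse 3.12 times the wild-type mouse. *MxCDX2* mouse 2, the highest of its group for 6 of the 9 genes, was the lowest for *Chil3*. Its log2 fold change was -2.79 ± 0.47 (SE, n = 3 per group, 95% interval -3.92 to -1.66, adjusted p = 0.0092, edgeR), a 6.91-fold lower level. With each mouse left out in turn it ranged from -3.10 to -2.33 and stayed called. The near-identical copy *Chil4* had 3, 7 and 3 counts in the control mice and 1, 1 and 0 in the *MxCDX2* mice and was removed by the filter on low counts. How reads shared by *Chil3* and *Chil4* were divided cannot be seen in the files.

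*Cd177* (ENSMUSG00000052212, chr7:24743983-24760311, minus strand) encodes a surface glycoprotein that is also stored in specific granules and holds proteinase 3 at the neutrophil membrane. It was at 1608, 1641 and 1089 CPM in the control mice and at 1194, 1370 and 1393 CPM in the *MxCDX2* mice. All 3 *MxCDX2* mice lay inside the range of the controls, above the wild-type mouse and below the others. The log2 fold change was -0.13 ± 0.21 (SE, n = 3 per group, 95% interval -0.63 to 0.36, adjusted p = 0.690, edgeR). The lower bound of that interval is short of the fold threshold. Set against *Cd177* within each mouse, *Chil3* had a log2 ratio of 1.50, 0.80 and 0.42 in the control mice and of -1.08, -2.27 and -1.67 in the *MxCDX2* mice. *Ltf* had a log2 ratio to *Cd177* of 2.38, 2.36 and 2.27 in the control mice and of 0.81, 0.79 and 0.37 in the *MxCDX2* mice. These pairs, and that of *Ngp* with *Camp*, were chosen after their values were seen and carry no test.

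The mice of a group kept an order over much of the list. Among the controls the RsCDX2 mouse was the highest for 6 of the 9 genes, the Mx1Cre mouse for the other 3, and the wild-type mouse was the lowest for 8. Among the *MxCDX2* mice, mouse 2 was the highest for 6 genes and the lowest for *Chil3* and *Hp*. Together the 9 genes took 3.94%, 3.36% and 2.29% of all counted reads in control mice 1 to 3, and 1.23%, 1.62% and 1.27% in the *MxCDX2* mice. That is a mean of 3.20% ± 0.84 in the control and 1.37% ± 0.21 in the *MxCDX2* marrow (SD, n = 3 each), with no overlap between the groups.

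Per kilobase of exon, the scale on which levels of different genes can be set side by side, the 9 genes spanned a wide range in the control marrow. *Ngp* was at 8563 ± 2898 and *Camp* at 5816 ± 2273 CPM per kilobase (SD, n = 3), followed by *Ltf* at 2131 ± 530, *Chil3* at 1814 ± 951 and *Lcn2* at 1133 ± 312. *Hp* was at 647 ± 205, *Mmp8* at 512 ± 164, *Cd177* at 509 ± 109 and *Mmp9* at 478 ± 101. Only *Camp* with *Ltf* and *Lcn2* with *Hp* were neighbours in this order whose mice did not overlap. In the *MxCDX2* marrow *Ngp* (4095 ± 688), *Camp* (2559 ± 609) and *Ltf* (606 ± 82) kept the first places and each was apart from the next. *Cd177* moved up behind them at 464 ± 38, ahead of *Hp* (387 ± 73), *Lcn2* (332 ± 50), *Chil3* (263 ± 85), *Mmp9* (168 ± 65) and *Mmp8* (118 ± 3), and neighbours among these 6 overlapped. Parts of this order depended on the length used. With the longest transcript in place of all exons, *Lcn2* came to 2164 CPM per kilobase in the control marrow, above *Chil3* at 1924, and to 633 in the *MxCDX2* marrow, above *Cd177* at 486 and *Hp* at 462.

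Other proteins of the same granules gave a mixed list. Of 15 further specific and gelatinase granule genes 14 were tested, of which 5 were called lower and 1 higher, with a median log2 fold change of -0.60, and *Bpi* was removed by the filter. The largest fall was in *Olfm4*, which encodes olfactomedin 4, a matrix glycoprotein found in a subset of neutrophils. It was at 566, 356 and 102 CPM in the control mice and 49.1, 25.2 and 26.8 CPM in the *MxCDX2* mice, a log2 fold change of -3.34 ± 0.64 (SE, n = 3 per group, adjusted p = 0.0137, edgeR). Its groups were apart, although the wild-type mouse was far below the other controls, and the call was lost without *MxCDX2* mouse 2 (adjusted p = 0.0579, edgeR) or mouse 3 (adjusted p = 0.0638, edgeR). *Pglyrp1*, a peptidoglycan recognition protein, fell with a log2 fold change of -1.26 ± 0.21 (SE, n = 3 per group, adjusted p = 0.00898, edgeR). *Lyz2*, the lysozyme of neutrophils and macrophages, was at 5436 CPM as the mean of the controls and 6378 CPM in the *MxCDX2* mice and was not called (log2 fold change 0.23 ± 0.27, SE). The single rise was *Cfp*, the complement protein properdin, with a log2 fold change of 1.03 ± 0.13 (SE, n = 3 per group, adjusted p = 0.00359, edgeR). Calls of lower genes in this list numbered 2 without *MxCDX2* mouse 2 and 3 without mouse 3, and *Cfp* was not called without mouse 3. Without the wild-type mouse *Fcnb*, which encodes ficolin B, was called as well (-1.12, adjusted p = 0.0263, edgeR), which made 6 lower calls.

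**Figure D2:**
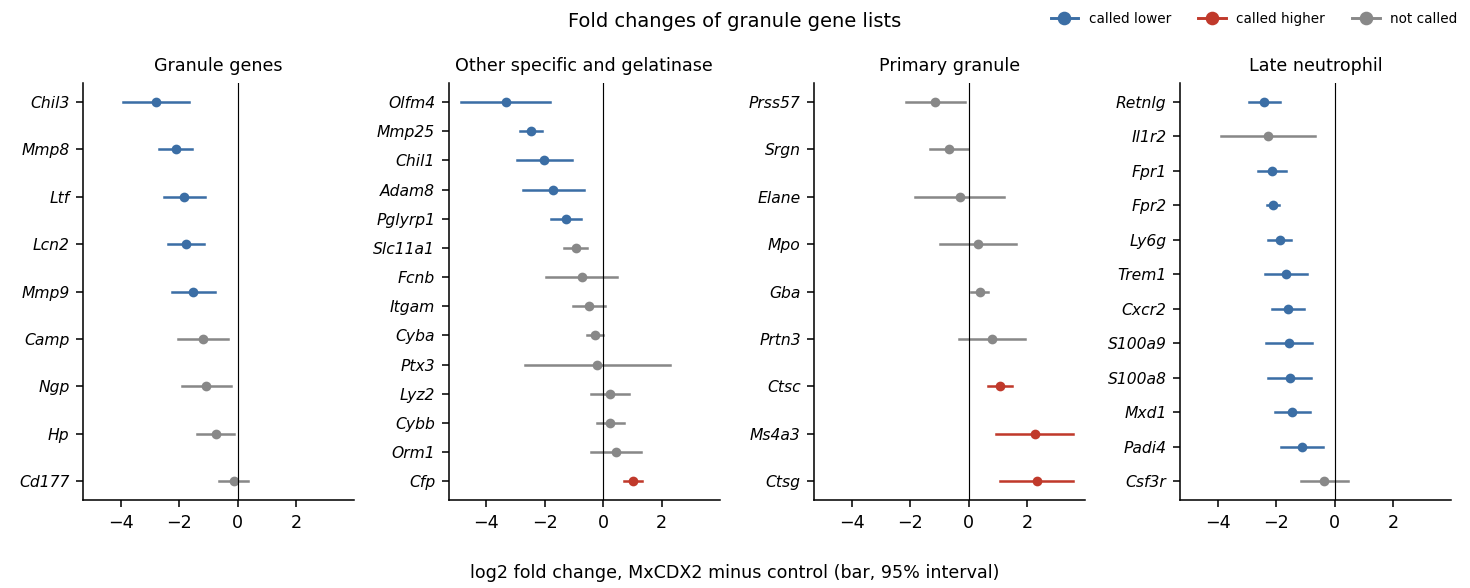
Log2 fold changes (*MxCDX2* minus control, points) with 95% intervals (bars) for the 9 granule genes, the other specific and gelatinase granule genes, the primary granule genes and the late neutrophil genes. Blue marks genes called lower, red marks genes called higher and grey marks genes not called, and the calls are with edgeR on all 6 mice, 5 lower and 0 higher among the 9 granule genes against 0 lower and 3 higher among the primary granule genes.

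The primary granule genes, made earlier in the lineage, gave a mixed list. Of 9 primary granule genes 0 were called lower and 3 higher by edgeR, with a median log2 fold change of 0.37. Without the wild-type mouse the median was 0.39, with 3 called higher and 1 lower. The lower call was *Prss57*, a serine protease of the primary granule, at 60.2, 41.1 and 17.0025 CPM in the control mice and 20.9, 16.0 and 16.4 CPM in the *MxCDX2* mice. Its log2 fold change was -1.15 ± 0.42 on all 6 mice (SE, n = 3 per group, adjusted p = 0.1001, edgeR) and -1.49 without the wild-type mouse (adjusted p = 0.00641, edgeR), and DESeq2 called it on all 6 mice (-1.15, adjusted p = 0.0376). *Mpo*, which encodes myeloperoxidase, was at 1682, 1394 and 323 CPM in the control mice and 1443, 1506 and 1265 CPM in the *MxCDX2* mice (log2 fold change 0.31 ± 0.54, SE). *Elane*, which encodes neutrophil elastase, was at 987, 824 and 132 CPM and at 431, 528 and 610 CPM (-0.31 ± 0.64, SE). Both overlapped between the groups and neither was called, and the wild-type mouse was far below the other controls for both. Without it the log2 fold change was -0.11 for *Mpo*, so that the direction turned, and -0.77 for *Elane*. *Ctsg*, which encodes cathepsin G, had the largest rise, from 381, 246 and 79.4 CPM to 1120, 1081 and 1321 CPM, a log2 fold change of 2.32 ± 0.52 (SE, n = 3 per group, adjusted p = 0.0237, edgeR). The list held 0 calls without control mouse 2 or without *MxCDX2* mouse 1, and 1 call without *MxCDX2* mouse 2 or mouse 3. In those 4 edgeR fits the log2 fold change of *Ctsg* was 2.23 to 2.38 and its adjusted p-value was 0.0528 to 0.0768, so that the size of the rise was kept while the adjusted p crossed the threshold. *Ctsg* was called without the wild-type mouse, at 1.92 (adjusted p = 0.00433, edgeR). The mean log2 level of the 9 secondary and tertiary granule genes minus that of the 9 primary granule genes, taken within each mouse and so free of scaling between mice, was 3.46, 3.64 and 4.26 in control mice 1 to 3 and 1.49, 1.83 and 1.54 in the *MxCDX2* mice. The groups were apart, at 3.79 ± 0.42 and 1.62 ± 0.18 (SD, n = 3 each), and the wild-type mouse had the largest ratio.

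Most genes of late neutrophils went with the 9 granule genes. Of 13 such genes 10 were called lower and 0 higher, with a median log2 fold change of -1.59, and their summed level was 28667 to 39858 CPM in the control and 10729 to 14781 CPM in the *MxCDX2* mice. *Retnlg*, a resistin-like protein of mature neutrophils, had the largest called fall at -2.41 ± 0.22 (SE, n = 3 per group, adjusted p = 0.00176, edgeR). *Ly6g*, the surface antigen used to sort mouse neutrophils, was at 110.4, 107 and 106 CPM in the control mice and 25.3, 37.0 and 25.9 CPM in the *MxCDX2* mice (-1.88 ± 0.17, SE). *Cxcr2*, the chemokine receptor through which neutrophils leave the marrow, was at 582, 587 and 342 CPM and at 167, 185 and 151 CPM (-1.59 ± 0.23, SE). For both genes the groups were far apart, and both were called with any mouse left out. *Csf3r*, in the same list, was at 623, 872 and 505 CPM in the control mice and at 378, 790 and 402 CPM in the *MxCDX2* mice. Its groups overlapped, and it was not called (-0.35 ± 0.34, SE, n = 3 per group, adjusted p = 0.515, edgeR). *S100a8* and *S100a9*, the subunits of calprotectin in the neutrophil cytosol, had log2 fold changes of -1.53 ± 0.31 and -1.56 ± 0.33 (SE, n = 3 per group, adjusted p = 0.0166 and 0.0183, edgeR). Together they made up most of the summed level of this list, at 14793 and 19125 of 39858 CPM in control mouse 1. Neither was called without *MxCDX2* mouse 1 or mouse 3, and the list held 5 calls without mouse 3. It held 11 without the wild-type mouse, with *Il1r2*, the decoy receptor of interleukin 1, added at -2.67 (adjusted p = 0.0198, edgeR).

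**Figure D3:**
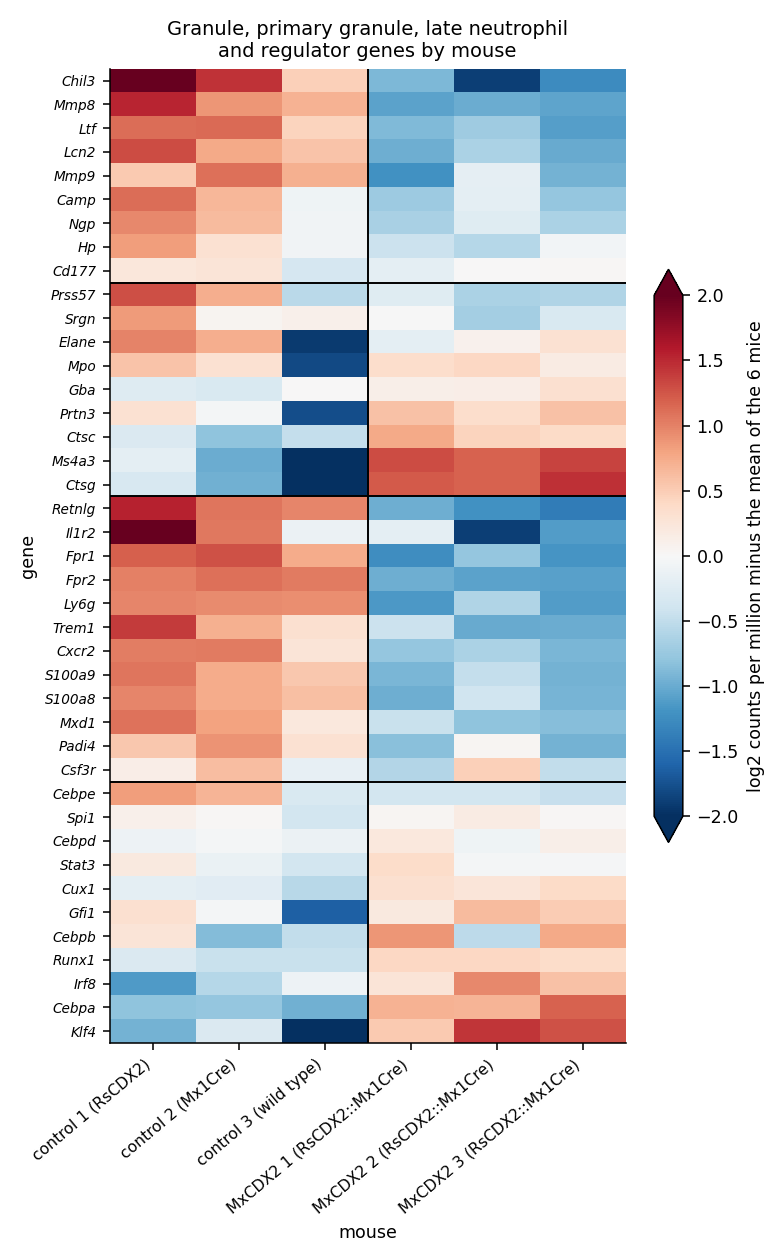
Log2 CPM of each gene minus its mean over the 6 mice, one column per mouse, for the 9 granule genes, the primary granule genes, the late neutrophil genes and the regulators (blocks from top to bottom, colours cut at 2 and -2). Except for *Csf3r* and *Padi4* in *MxCDX2* mouse 2, the late neutrophil block repeats the blue right side of the granule block, in which *Cd177* differs little between the groups. The primary granule block does not repeat it, with *Ctsg* and *Ms4a3* red in the *MxCDX2* mice.

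Levels over the 6 mice were then compared with those of every other gene. The profile of the list, taken as the median over the 9 genes of log2 levels centred on their mean over the mice, was 1.11, 0.76 and 0.44 in control mice 1 to 3 and -0.88, -0.57 and -0.95 in the *MxCDX2* mice. Among 11973 genes outside the list whose normalized counts averaged 100 or more, the closest by root mean square difference over the 6 mice was *S100a9*, at 0.060 on the log2 scale. *Aph1b* (0.099), *Pabpc1l* (0.117), *S100a8* (0.118), *Grina* (0.120), *Atl1* (0.122), *Ampd3* (0.124), *Plbd1* (0.137), *Arrdc3* (0.139) and *Tab3* (0.150) followed. All 10 were nearer to this profile than 8 of the 9 members, of which only *Lcn2* (0.106) came among them, and *Chil3* (0.744) and *Cd177* (0.748) lay farthest from it. With 6 mice and 2 groups, a small difference mainly says that a gene had a fall of like size.

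Transcription factors known from granulocyte and monocyte development were measured in the same libraries. Of 11 regulators 0 were called lower and 3 higher by edgeR, with a median log2 fold change of 0.69. *Cebpe*, which encodes C/EBPε, was at 166, 149 and 75.5 CPM in the control mice and 72.2, 72.3 and 67.6 CPM in the *MxCDX2* mice. All *MxCDX2* mice were below all controls, but the wild-type mouse was close to them, and the log2 fold change of -0.88 ± 0.28 (SE, n = 3 per group, adjusted p = 0.0652, edgeR) was not called. Without the wild-type mouse it was -1.13 and called (adjusted p = 0.00216, edgeR). *Cebpa*, the C/EBP factor of earlier progenitors, rose from 53.3, 54.4 and 47.7 CPM to 150.0, 149 and 211 CPM, at 1.72 ± 0.16 (SE, n = 3 per group, adjusted p = 0.00191, edgeR). *Gfi1*, a repressor needed for neutrophil maturation, was at 68.9, 53.7 and 17.6 CPM and at 63.2, 85.4 and 78.2 CPM (0.69 ± 0.45, SE), and *Spi1*, which encodes PU.1, was at 267 ± 44.3 and 294 ± 15.9 CPM (SD, n = 3 each), both overlapping between the groups. The largest rise was in *Klf4*, a factor of the monocyte branch, at 2.05 ± 0.45 (SE, n = 3 per group, adjusted p = 0.0211, edgeR). The remaining call was *Irf8*, also a factor of the monocyte branch, at 1.17 ± 0.30 (SE, n = 3 per group, adjusted p = 0.0354, edgeR). *Irf8* was not called without control mouse 1 or 2 or without *MxCDX2* mouse 2 or 3. *Klf4* was not called without control mouse 1 or without *MxCDX2* mouse 2 or mouse 3, and each of those fits left 1 call in the list, that of *Cebpa*.

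Inhibitors and receptors of the granule proteins were measured as well. Of 12 such genes 11 were tested, with 2 called lower and 0 higher. *Timp2*, an inhibitor of matrix metalloproteinases, fell from 161, 114 and 108 CPM to 53.5, 68.1 and 60.6 CPM, at -1.07 ± 0.18 (SE, n = 3 per group, adjusted p = 0.00922, edgeR), and it was under the fold threshold without control mouse 1, without *MxCDX2* mouse 1 or with total counts as the only scaling. The larger fall was in *Fpr2*, the formyl peptide receptor that cathelicidin peptides act on, at -2.10 ± 0.09 (SE, n = 3 per group, adjusted p = 0.000539, edgeR). *Fpr2* is also in the late neutrophil list, so its call is counted in both. *Timp1*, the inhibitor best known as a partner of gelatinase B, was between 0.17 and 5.56 CPM in all mice and not called, and *Slc22a17*, the reported receptor of lipocalin 2, was between 0.79 and 2.75 CPM and not called.

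The relatives of the 9 genes that were listed as paralogs were low throughout. *Chil1* and *Mmp25*, relatives as well, were counted with the other granule genes instead. In control mice 1 to 3 *Chil1* was at 190, 456 and 290 CPM and *Mmp25* at 158, 160 and 142 CPM. Both were called lower by edgeR, at -2.02 and -2.47, although *Chil1* was not called without *MxCDX2* mouse 2 or mouse 3. Of 12 paralogs 7 passed the filter on low counts, with 2 called lower and 1 higher, and none exceeded 39.0 CPM in any mouse. *Chil5* fell to 3.05, 3.36 and 2.39 CPM from 11.5, 10.9 and 9.66 CPM (-1.86 ± 0.22, SE, n = 3 per group, adjusted p = 0.00296, edgeR). *Mmp14*, a membrane-bound metalloproteinase, had the larger fall, at -2.07 ± 0.46 (SE, adjusted p = 0.0228, edgeR), and *Mmp12*, the macrophage elastase, rose at 2.22 ± 0.52 (SE, adjusted p = 0.0267, edgeR), from 0.56 to 1.14 CPM in the control mice to 2.35 to 5.93 CPM. The call of *Mmp14* was lost without any single *MxCDX2* mouse, and that of *Mmp12* without control mouse 1 or 2 or *MxCDX2* mouse 3.

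*Camp*, *Ngp* and *Ltf* lie within 1195 kb of chromosome 9. Among the 19 other tested genes inside that span 3 were called lower and 0 higher, with a median log2 fold change of 0.053. No annotated gene overlapped any of the 9 granule genes.

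Markers of other marrow cells moved between the same groups. Of 8 monocyte markers 6 were called higher and 0 lower, with a summed level of 945 to 1421 CPM in the control and 6165 to 7425 CPM in the *MxCDX2* mice, and 5 or 6 were called with any mouse left out. Their largest rise was in *F13a1*, at 3.06 ± 0.38 (SE, n = 3 per group, adjusted p = 0.00345, edgeR). *Klf4* is in this list and among the regulators, so its call is counted in both. All 9 erythroid markers were called lower, from 18226 to 20135 CPM in sum to 563 to 2280 CPM, with *Hba-a1* falling most at -4.24 ± 0.50 (SE, adjusted p = 0.00306, edgeR), and 6 of them were called without *MxCDX2* mouse 3. B cell markers summed to 416 to 1254 CPM in the control and 102 to 359 CPM in the *MxCDX2* mice, and 4 of 8 were called lower, led by *Ms4a1* at -2.41 ± 0.51 (SE). The number called was 0 to 6 with 1 mouse left out, being 0 without control mouse 2 or *MxCDX2* mouse 3 and 6 without the wild-type mouse. Of 8 T and NK cell markers 2 were called lower, led by *Cd4* at -2.64 ± 0.51 (SE), at 103 to 229 and 46.8 to 87.7 CPM in sum, with 0 called without *MxCDX2* mouse 2.

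The macrophage and megakaryocyte lists gave other calls without the wild-type mouse. The 8 macrophage markers summed to 674, 600.3 and 1573 CPM in control mice 1 to 3 and to 538, 529.9 and 631 CPM in the *MxCDX2* mice, so that the high value belonged to the wild-type mouse alone. With all 6 mice edgeR called 3 of them lower, led by the complement gene *C1qa* at -2.26 ± 0.62 (SE, n = 3 per group, adjusted p = 0.0427), and 0 higher, while limma voom called 1 lower. *Adgre1*, which encodes the F4/80 antigen, and *Cd68*, a lysosomal glycoprotein, were above all controls in all *MxCDX2* mice, at 0.75 and 0.82 on the log2 scale, and were not called. Without the wild-type mouse 2 were called lower and 2 higher: *Adgre1* was called at 1.15 and *Cd68* at 1.03, and *C1qa* was not called at -1.40 (adjusted p = 0.0540, edgeR). Without *MxCDX2* mouse 1 or mouse 2 the lower calls numbered 0, and without mouse 3 there was 1. Of 6 megakaryocyte markers *Gp9*, a subunit of the platelet receptor for von Willebrand factor, alone was called, at 36.9, 26.3 and 266 CPM in the control mice and 8.76, 6.79 and 9.21 CPM in the *MxCDX2* mice. Its log2 fold change was -3.73 ± 0.93 (SE, n = 3 per group, adjusted p = 0.0325, edgeR), and without the wild-type mouse it was -1.92 ± 0.21 (SE, adjusted p = 0.00368, edgeR), with 4 of the 6 markers called. The call of *Gp9* was lost without any single *MxCDX2* mouse (adjusted p = 0.0888 to 0.111, edgeR) and with limma voom on all 6 mice (adjusted p = 0.109). Defining markers of every one of these cell types were detected in all 6 mice. The part of all these cell types in the levels of the granule genes was not tested.

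**Figure D4:**
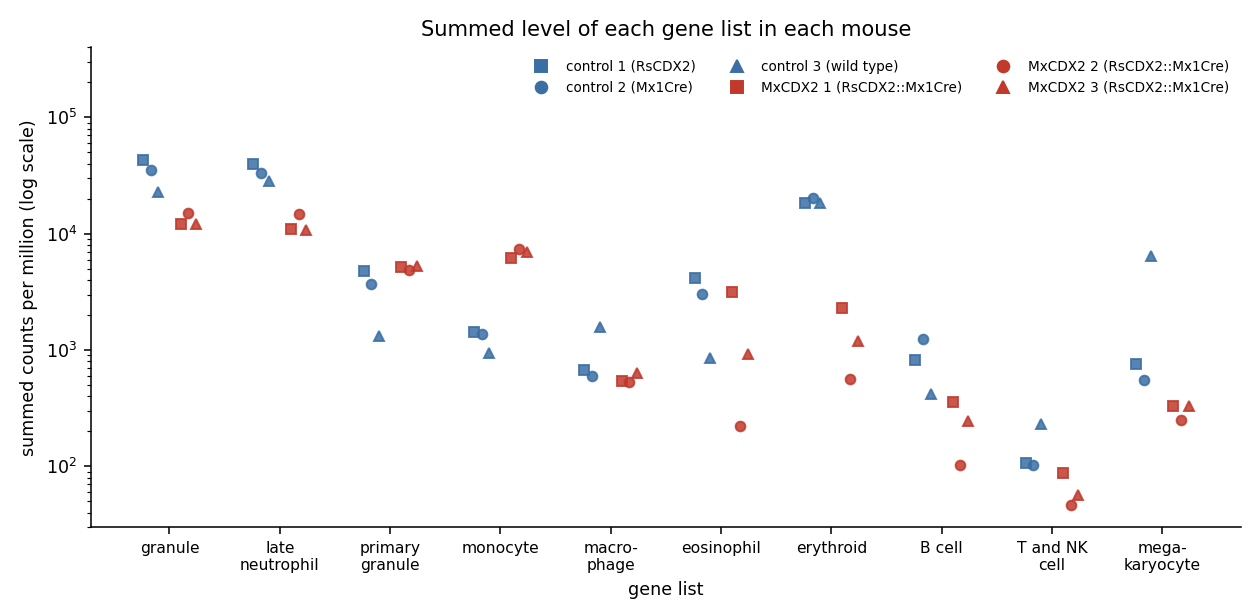
Summed CPM (log axis) of the 9 granule genes and of each fixed marker list in each mouse, blue for the control mice and red for the *MxCDX2* mice, with the symbol shape for the mouse. The granule and late neutrophil lists are lower in all *MxCDX2* mice, the monocyte list is higher, and the wild-type mouse is alone in its megakaryocyte level of 6428 CPM. Most of the late neutrophil sum comes from *S100a8* and *S100a9*.

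Over the alternative fits, the log2 fold change of all 9 genes stayed below 0. The count of called granule genes was 3 without *MxCDX2* mouse 3, 5 without each of control mouse 1, control mouse 2, *MxCDX2* mouse 1 and *MxCDX2* mouse 2, and 7 without the wild-type mouse. Lower calls over all tested genes fell as well without *MxCDX2* mouse 3, to 694 of 16302 from 1443 of 15980. They numbered 1482 of 16179 without the wild-type mouse, and 889 to 1260 in the left-out fits with 5 granule calls. The fall to 3 was therefore not particular to the granule genes. *Chil3*, *Mmp8* and *Lcn2* were called in every fit, and *Hp* and *Cd177* in none.

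**Figure D5:**
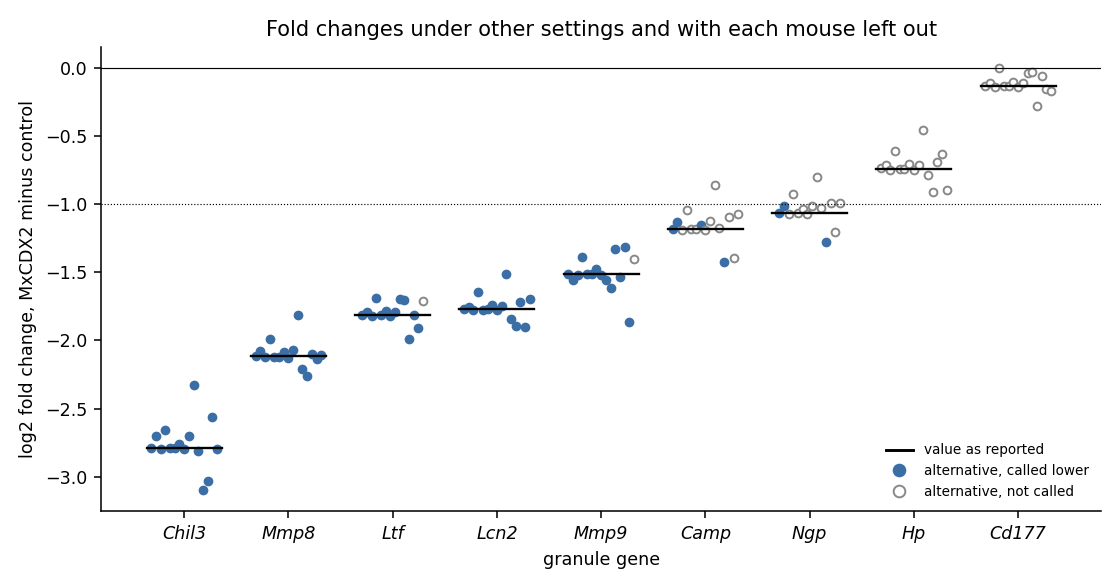
Log2 fold changes of the 9 granule genes as reported (black bars) and under each alternative fit (circles, filled where the gene was called lower and open where it was not). The dotted line marks the fold threshold, and *Camp* and *Ngp* lie around it with filled and open circles, while *Chil3*, *Mmp8* and *Lcn2* have filled circles only.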

How the data were processed

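Stranded mRNA libraries of mouse bone marrow were aligned by the authors to GRCm38 with STAR 2.5, and the deposited values are HTSeq 0.6.1 counts per gene, 1 file per mouse, not normalized. Of the reads in each file, 12.22% to 17.1% fell on no gene or on several (rows of HTSeq that name no gene) and were left out. Groups came from the labels, and the genotype of each control mouse from its title.

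GENCODE M21, on GRCm38, gave symbols and positions and held 37693 of 39179 identifiers. The test was edgeR 4.0.16 (TMM, filterByExpr, quasi-likelihood) under R 4.3.3, with DESeq2 1.42.0 and limma 3.58.1 (voom) as alternatives. The thresholds of the call rule, a log2 fold change beyond 1 in size with adjusted p below 0.05, are those of the methods, which name DESeq2 and not edgeR. With DESeq2 7 of the 9 granule genes were called lower. Standard errors and 95% intervals came from the quasi-likelihood fit. Its calls and fold changes, not its intervals, were tested on simulated data. CPM is the count per 1000000 reads of the TMM-adjusted library. The other alternatives were other normalizations, low-count filters and call rules, the number of the mouse as a block, and each mouse left out in turn. Other tables were made with Python 3.11.15. Promoters came from RefSeq (GRCm38.p6).

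The 9 genes and all lists were chosen with earlier results of these data known. Named beside them were the called gene with the largest rise and with the largest fall of each list, regulators and markers fixed by name, and the 10 genes of nearest profile. Other genes are named after their values were seen, where a count is small, where a gene departs from its list or where a list left it out. *Fpr2*, *Klf4* and *Cd163* are each counted in both of the lists that hold them. In the late neutrophil list 1 gene is counted but not reported or drawn here. The mice came from 1 litter as separate animals, so errors are those between animals, and at these depths they exceed counting error for the 9 genes.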

Additional observations from a re-analysis of the deposited data

How the results depend on the processing

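Of 408 alternative values, 339 kept their direction and their side of the thresholds or, for counts of calls, stayed within 1.5 times and, for values with no test, within 1 SD between mice. None of the log2 fold changes of the 9 genes changed direction. With 1 mouse left out, 3 to 7 granule genes and 1205 to 2406 of all genes were called against 5 and 2177, and both lowest counts were without *MxCDX2* mouse 3. In those fits the log2 fold change ranged from -1.99 to -1.69 for *Ltf*, -1.87 to -1.32 for *Mmp9*, -1.42 to -0.86 for *Camp* and -1.28 to -0.80 for *Ngp*. DESeq2 called *Camp* (-1.18) and *Ngp* (-1.06), as did limma voom (-1.13 and -1.02), and keeping every gene with at least 1 count called *Camp* (-1.15). The cause was not tested. Over all genes, 3471 passed an adjusted p of 0.05 with no fold threshold and 1043 passed 0.01 with it. Scaling by total counts moved the median of all genes by 0.116 and gave 903 higher and 1273 lower calls, against 734 and 1443, with 5 granule genes called. Leaving out the 10 most abundant genes removed *Ngp* and *Ltf* from the test, and 4 of the other 7 were called.

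The control mice carry no replicate number of their own, so the labels do not pair the mice by number. With the number as a replicate block, 5 granule genes and 2205 of all genes were called. As a hint from the data, each mouse correlated best with its own number (0.169, 0.286 and 0.182 over genes).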

Other observations

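The granule proteins of eosinophils, a further granulocyte of the marrow, varied more between mice than between groups. *Prg2*, which encodes the major basic protein, was at 2774, 1851 and 505 CPM in control mice 1 to 3 and at 2037, 145 and 608 CPM in the *MxCDX2* mice. *Epx*, the eosinophil peroxidase, followed the same order, at 592, 476 and 120.2 CPM and at 470, 42.5 and 147 CPM. Of 8 eosinophil markers edgeR called 0 in either direction, with log2 fold changes from -2.23 to -0.81. DESeq2 and limma voom each called 1 lower, the chemokine receptor gene *Ccr3*, for which all *MxCDX2* mice were below all controls. Without *MxCDX2* mouse 1 edgeR called *Ccr3* as well (-3.47, adjusted p = 0.00823, edgeR). The summed level of the 8 markers was lowest in *MxCDX2* mouse 2, at 221.5 CPM, the mouse in which 6 of the 9 neutrophil granule genes were the highest of its group.

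Within the wild-type control mouse, all 6 megakaryocyte markers were above those of the other controls, with *Ppbp*, a platelet chemokine, at 2553 CPM against 328 and 159 CPM. The same mouse was the lowest control for 8 of the 9 granule genes. Whether these values are linked was not tested.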
